A study of Homo sapiens with 12 samples.

Results

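The genes described here are the molecular chaperones and their partners that the array names by symbol, measured in HEK293 cells that had received a mimic of the microRNA miR-1825 or a control RNA. They were chosen by gene symbol: no hyphen, and a start of DNAJ, HSPA, HSPB, HSPD, HSPE, HSPH, HSP90, PDIA, BAG with a digit or CCT with a digit, together with SDF2L1 and CHORDC1. The rule found 25 genes of the 14884 named on the array, held in 38 rows of the table. It found 12 HSPA genes, 5 BAG genes, 4 symbols starting with HSPB, and HSPD1, HSPH1, SDF2L1 and CHORDC1. No row named here began with DNAJ, HSPE, HSP90, PDIA or CCT, so the J-domain, HSP90, disulfide isomerase and cytosolic chaperonin families were not analysed here. By the symbols, most of the set are HSP70 family genes and BAG genes, beside 3 small heat shock proteins, the chaperonin HSPD1, HSPBAP1, CHORDC1 and SDF2L1, and SDF2L1 is its only resident of the endoplasmic reticulum.

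HEK293 is an adenovirus-transformed human embryonic kidney line, and the cells were grown in standard serum-containing medium. The control group (6 arrays) received AllStars Negative Control siRNA and the mimic group (6 arrays) Syn-hsa-miR-1825, each at 5 nM with a lipid reagent, and total RNA was taken after 24 h. No untransfected cells were measured, so a response to transfection that both groups share would not show. No label says that the 6 replicates of a group were separate cultures, and the spread behind each p-value may therefore be only technical. A lower value in bulk RNA can mean fewer cells that express a gene or less RNA per cell, and these cannot be told apart.

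Chaperones bind unfolded or partly folded proteins and keep them from aggregating. HSP70 proteins hold and release their clients in a cycle of ATP hydrolysis: J-domain proteins start it, and nucleotide exchange factors of the HSP110 and BAG families end it. Protein damage in the cytosol raises some of these genes through the transcription factor HSF1. Unfolded proteins in the endoplasmic reticulum raise another set, with SDF2L1 among it, through the unfolded protein response.

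The mature miR-1825 sequence is shown because the mimic copies it, with the seed (bases 2 to 8, which pair with target mRNAs) in capitals. It lies on the plus strand at chr20:32237830-32237847 (RefSeq, GRCh38.p14), has 18 bases, and is the only mature human miRNA in the RefSeq table with this seed. Target sites in the members' mRNAs were not analysed here.
hsa-miR-1825: uCCAGUGCccuccucucc

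The promoter windows below are shown because some members fall under heat shock or endoplasmic reticulum stress control. Of the 25, 9 are in the list of heat-inducible genes and 1, SDF2L1, in that of the unfolded protein response. Another reason is that SDF2L1 and CHORDC1, with the largest differences at a level above the array median, each held a stress motif match. Neither difference passed an adjusted p of 0.05 in limma. HSPA6 and HSPD1 also held matches, with log2 fold changes of 0.06 and 0.0002. Whether matches go with differences was not tested. Windows of 250 bases before to 50 after the annotated start were found in RefSeq (GRCh38.p14) for 21 of the 25 genes, 26 windows in all; HSPA7, HSPA14, HSPA12B and BAG4 had none. Both strands were searched for 4 motifs, and overlapping matches were counted. The heat shock element of 3 units, TTCNNGAANNTTC, was in windows of 3 of the 21 genes (CHORDC1, HSPA6 and HSPD1), against 0.49% of all 35116 windows. The percentages count windows, not genes. An exact match was required. The heat-inducible HSPA1A, HSPA1B, HSPH1 and BAG3 held none, which does not show that they lack such elements. The endoplasmic reticulum stress element II, ATTGGNCCACG, was in the window of SDF2L1 alone among the 21, against 0.0541% of all windows. The endoplasmic reticulum stress element, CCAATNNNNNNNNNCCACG, was in 0 of the 21 (0.0769% of all windows), and the core of the unfolded protein response element, TGACGTGG, in 0 of the 21 (0.729%). A match describes letters in a window and is no evidence of binding.

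In the sequences, read 5′ to 3′ on the gene's strand, capitals mark the matches, merged where they overlap. The SDF2L1 stretch is chr22:21642054-21642184 on the plus strand, and its match, which reads on the opposite strand, begins 188 bases before the start. The CHORDC1 stretch is chr11:90223050-90223169 on the minus strand, where 3 overlapping matches cover 23 bases from 60 to 38 bases before the start. The HSPA6 stretch is chr1:161524406-161524538 on the plus strand, with its match from 74 to 62 bases before the start. The HSPD1 stretch is chr2:197500063-197500090 on the minus strand, with 2 overlapping matches over 18 bases that begin 245 bases before the nearer of its annotated starts.
SDF2L1: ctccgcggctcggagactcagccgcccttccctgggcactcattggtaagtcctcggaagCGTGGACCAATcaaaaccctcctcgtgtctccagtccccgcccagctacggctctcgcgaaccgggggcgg
CHORDC1: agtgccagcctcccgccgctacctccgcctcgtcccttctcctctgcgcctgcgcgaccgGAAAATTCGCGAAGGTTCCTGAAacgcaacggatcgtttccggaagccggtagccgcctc
HSPA6: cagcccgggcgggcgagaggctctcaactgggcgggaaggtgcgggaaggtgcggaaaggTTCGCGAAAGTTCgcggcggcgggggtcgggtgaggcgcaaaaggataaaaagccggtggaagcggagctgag
HSPD1: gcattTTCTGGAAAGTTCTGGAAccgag

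**Figure D1:**
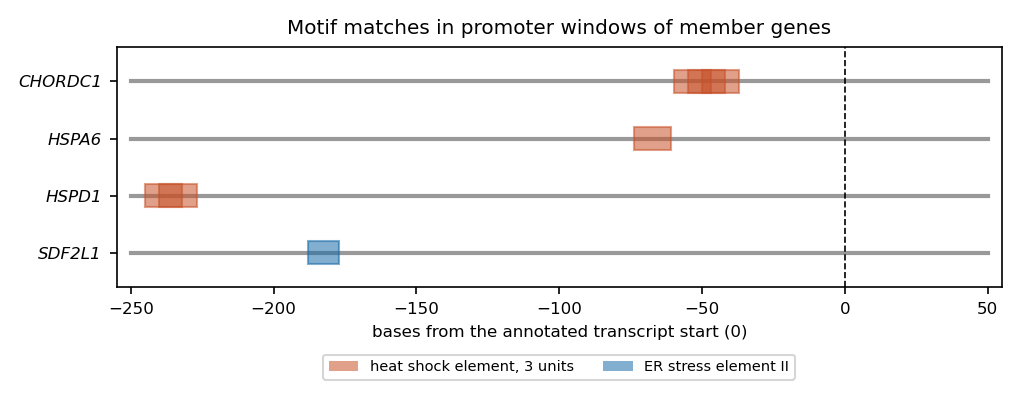
Motif matches in the promoter windows of the 4 genes that held any; the x axis is the distance in bases from the annotated transcript start, the grey line is the window and coloured boxes are matches. Those of CHORDC1 and HSPA6 lie within 74 bases of the start, that of SDF2L1 begins 188 bases before it and those of HSPD1 begin up to 245 bases before it.

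Across the whole array the groups were close, with pairwise correlations of 0.988 or more among the 12 arrays. Of 8 genes in a list of HEK293 markers 5 were measured: PAX2, LHX1, VIM, KRT8 and KRT18. All 5 had means at or above the array median of 4.48, as had 10698 of the 14884 named genes. The same held for 2 of 3 measured fibroblast, 3 of 5 epithelial cancer line and 0 of 2 leukocyte markers. The epithelial marker EPCAM had a mean of 7.95, and these counts do not identify the cells. In limma 0 of the 15 measured markers passed the threshold. At an unadjusted p under 0.05 there were 1 HEK293 and 1 epithelial marker, both lower, against 10.9% of named genes. The level of each marker list, as the mean log2 value of its measured genes, overlapped between the groups: 7.17 to 7.32 in controls and 7.05 to 7.25 after the mimic for HEK293, 4.46 to 4.60 and 4.46 to 4.65 for fibroblasts, 5.20 to 5.37 and 5.15 to 5.30 for epithelial cancer lines, and 3.21 to 3.60 and 3.23 to 3.57 for leukocytes.

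The 25 chaperone genes changed little after the mimic. In limma with Benjamini-Hochberg adjustment over all rows, 0 of 25 passed an adjusted p of 0.05, against 0.0112% of all 53617 rows (6 rows, none of them named here). At an unadjusted p under 0.05 there were 2 of 25 (8%), SDF2L1 and HSPA7, both lower, which is no more than the 10.8% of all rows or the 10.9% of named genes (4.19% lower, 6.69% higher). The mean was higher after the mimic in 15 of 25 and lower in 10, against 50.1% higher among named genes in the same fit. Among genes at or above the array median it was higher in 13 of 22 members and in 5840 of 10698 named genes. The higher members numbered 13 after quantile normalization and 17 with arrays centred on their medians. In those settings the median log2 fold change of named genes moved too, to -0.006 and 0.015. The median log2 fold change (mimic minus control throughout) was 0.02 for the members, -0.01 for all rows and 0.0002 for named genes. For those at or above the array median it was 0.017 for members and 0.0097 for named genes. The range of all array values separated the groups for 0 of the 25, against 1.75% of named genes.

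For most members the interval of the change was narrow. The 95% interval of the fold change lay within 1.2-fold either way for 21 of 25 members (84%), against 68.4% of named genes. The exceptions were SDF2L1, CHORDC1, HSPA7 and HSPA6, of which HSPA7 and HSPA6 had means of 3.54 and 4.01, under the array median. Half-widths of the interval ran from 0.07 to 0.29 on the log2 scale, with a median of 0.13. These intervals rest on the spread between arrays, which may be only technical. The shares of 84% and 68.4% are not matched for level. Means lay at or above the array median for 22 of 25 members and 10698 of 14884 named genes. Levels are log2 values of different probes and were not set against each other between genes.

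**Figure D2:**
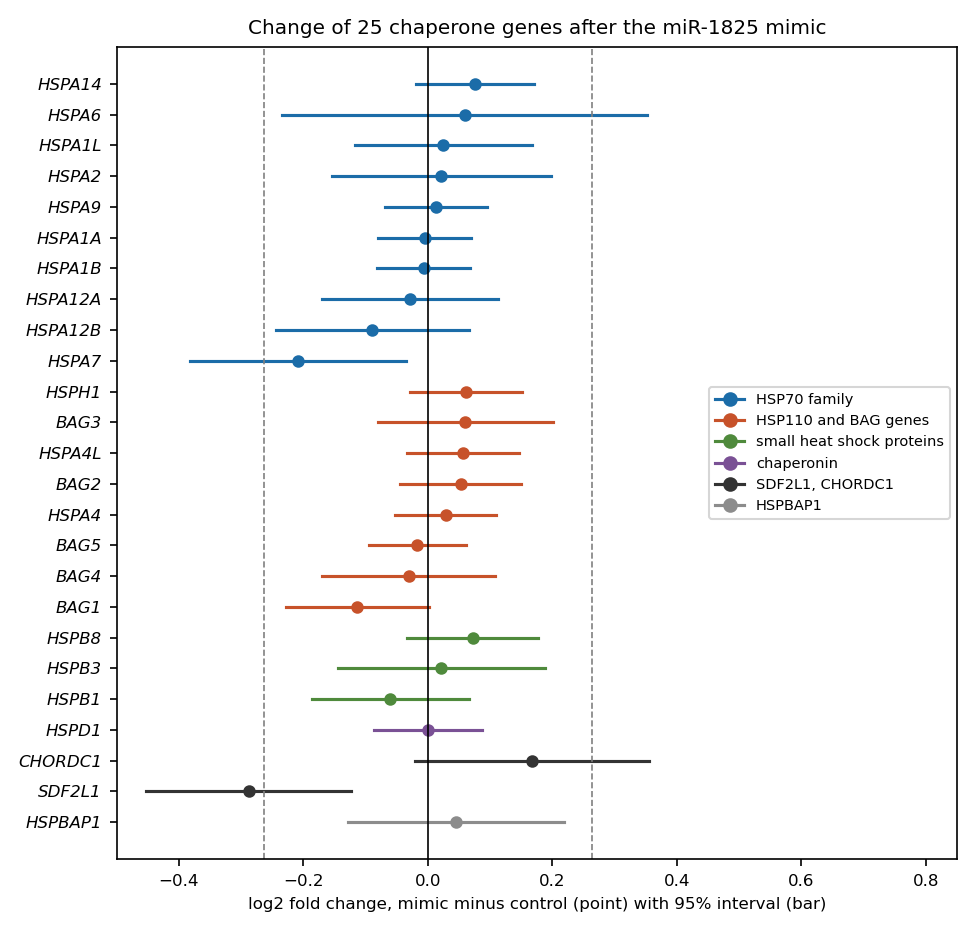
Log2 fold change of the 25 genes, mimic minus control, with the 95% interval of limma (6 arrays per group); colours give the role and dashed lines mark 1.2-fold either way. The intervals of 21 genes stay between the dashed lines, and those of SDF2L1 and HSPA7 do not reach 0.

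SDF2L1 encodes a protein of the endoplasmic reticulum that works with the HSP70 there and its J-domain partner. It had the largest difference of the 25. Control arrays had log2 values of 7.43 at the lowest, 7.53 at the median and 7.63 at the highest, and mimic arrays 6.93, 7.26 and 7.46. All 6 mimic arrays lay below the control mean, and only mimic replicate 3, at 7.46, lay above the 2 lowest controls. The log2 fold change was -0.29 (95% interval -0.45 to -0.12, SE 0.08), or 1.22-fold lower, with means of 7.52 ± 0.08 and 7.24 ± 0.17 (SD, n = 6 each). It did not pass (limma adjusted p = 0.241, unadjusted p = 0.00232). Among the brightest 25% of rows, where 1.81% of rows passed, 0 of the 19 members there did, and SDF2L1 came nearest. Under 19 alternative settings its log2 fold change ran from -0.33 to -0.23 and the limma adjusted p from 0.0600, in the brightest 25% of rows, to 0.423, with a replicate block. Mimic replicate 6 was the lowest array, and without it the log2 fold change was -0.23.

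CHORDC1 encodes a partner of HSP90 with zinc-binding CHORD domains, known as heat-inducible. Controls ran from 5.69 over a median of 5.83 to 5.93, and mimic arrays from 5.63 over 6.03 to 6.25. Mimic replicate 5 was the lowest of all 12 arrays and mimic replicate 6 the highest, so the mimic arrays spanned the whole control range. The log2 fold change was 0.17 (95% interval -0.02 to 0.36) and did not pass (limma adjusted p = 0.520). It was 0.24 without mimic replicate 5 and 0.11 without mimic replicate 6.

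**Figure D3:**
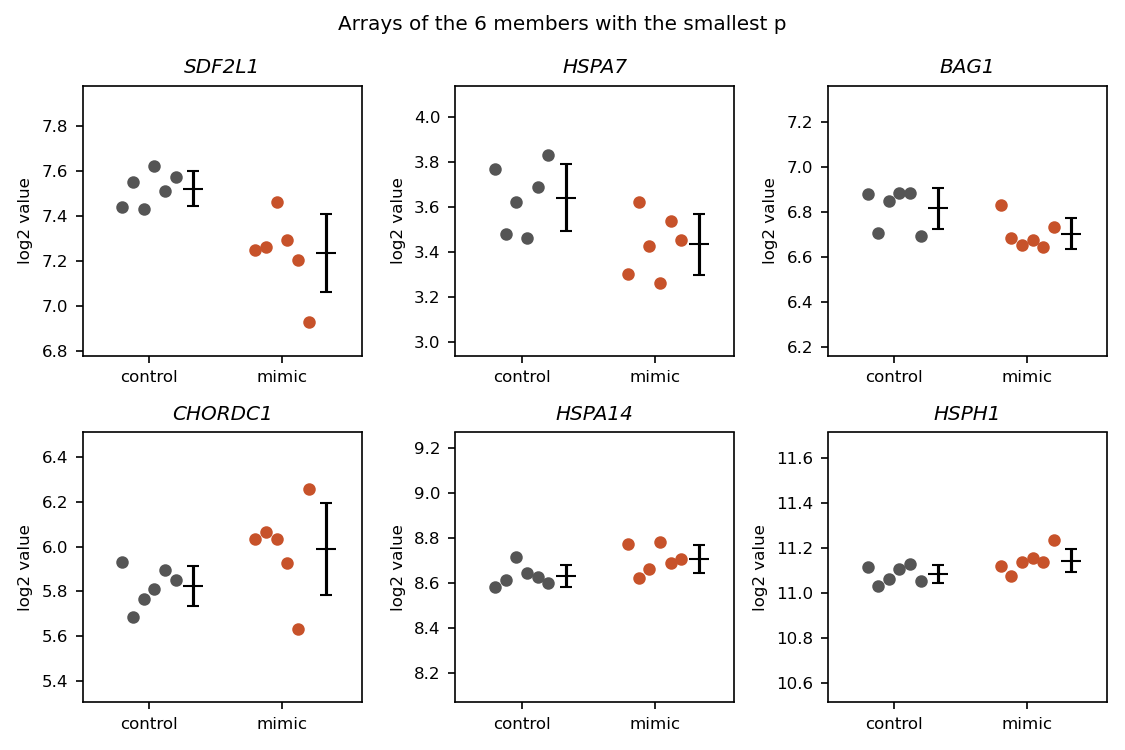
Log2 value of each array for the 6 genes with the smallest p, control (grey) and mimic (orange), with the mean and SD as black marks; every panel spans 1.2 log2 units. The groups overlap in every panel, and mimic replicate 6 is the last orange point, at 6.93 for SDF2L1 and 6.25 for CHORDC1.

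Of 13 genes in the list fixed for the HSP70 family 10 were measured, with 5 higher and 5 lower. HSPA5 and HSPA8 were not among the rows named here. The median change of the 10 was 0.004 on the log2 scale, with 0 past the threshold. The sign of that median was not stable: it was -0.0036 after quantile normalization, 0.019 with arrays centred on their medians and -0.0067 to 0.0048 when single arrays were left out. Centring arrays on their medians turned HSPA1A and HSPA1B higher, and quantile normalization turned HSPA9 lower. HSPA1A and HSPA1B, the classic heat-inducible HSP70 genes, were the steadiest of the 25, with within-group SDs of 0.01 each. HSPA1A was at 13.61 at the lowest and 13.65 at the highest control array and at 13.60 and 13.63 after the mimic, with a median of 13.61 in each group. HSPA1B ran from 13.49 over 13.51 to 13.52 in controls and from 13.47 over 13.50 to 13.52 after the mimic. Their log2 fold changes were -0.01 each, with 95% intervals from -0.08 to 0.07, and limma adjusted p values of 0.976 and 0.967. Values of these genes lie near the top of the array's scale, which reaches 14.4, and whether the scale is compressed there was not tested.

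HSPA1A, HSPA1B and HSPA1L lie together on chromosome 6 and are each represented by 5 rows. The first pair is nearly identical in sequence, so the assignment of signal between them is uncertain. Of the 5 HSPA1A rows, 3 held the same values on all 12 arrays, as did 3 of the 5 HSPA1L rows. Log2 fold changes ran from -0.02 to -0.01 over the HSPA1A rows, from -0.02 to 0.01 over those of HSPA1B and from -0.04 to 0.03 over those of HSPA1L, which encodes a close relative best known from testis.

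HSPA7, annotated as a transcribed pseudogene and closely related to HSPA6, was the HSP70 row with the smallest p. Its arrays ran from 3.46 over 3.65 to 3.83 in controls and from 3.26 over 3.44 to 3.62 after the mimic. All 6 mimic arrays lay below the control mean, and the ranges overlapped. The log2 fold change was -0.21 (95% interval -0.38 to -0.03; limma adjusted p = 0.385), at a level below the array median where background is not known. HSPA6, a strictly heat-inducible HSP70 gene, had the widest spread of the 25 (within-group SD 0.26) and differed by 0.06 on the log2 scale (95% interval -0.23 to 0.35).

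HSPA14, an HSP70 that acts at the ribosome, ran from 8.58 over 8.62 to 8.72 in controls and from 8.62 over 8.70 to 8.78 after the mimic. With 5 of 6 mimic arrays above the control mean, its log2 fold change was 0.08 (limma adjusted p = 0.572). HSPA9, the HSP70 of mitochondria, differed by 0.01 and HSPD1, the mitochondrial chaperonin, by 0.0002 on the log2 scale, with 95% intervals from -0.07 to 0.09 and from -0.09 to 0.09. HSPD1 ran from 8.99 to 9.12 in controls and from 8.99 to 9.08 after the mimic, and 3 of 6 mimic arrays lay above the control mean. HSPD1 has processed pseudogenes whose transcripts could bind the same probes. The log2 fold change of the testis-enriched HSPA2 was 0.02, and the divergent HSP70 relatives HSPA12A and HSPA12B had -0.03 and -0.09.

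Of 10 nucleotide exchange factors in their list 8 were measured, 5 higher and 3 lower. Their median log2 fold change was 0.04, with 0 past the threshold. In the main setting 0 had an unadjusted p under 0.05, but BAG1 and HSPH1 did in some alternatives. The 3 HSP110 genes all had higher means. HSPH1 and HSPA4L are both in the heat-inducible list given below. HSPH1 ran from 11.03 over 11.08 to 11.13 in controls and from 11.07 over 11.14 to 11.24 after the mimic. Its highest array was again mimic replicate 6, and the log2 fold change was 0.06 (95% interval -0.03 to 0.15; limma adjusted p = 0.629). HSPA4L had 0.06, with 6 of 6 mimic arrays above the control mean, and HSPA4 had 0.03.

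Among the BAG genes, BAG1, which couples HSP70 to the proteasome, differed most. Its controls ran from 6.70 over 6.86 to 6.89 and its mimic arrays from 6.65 over 6.68 to 6.83, with 5 of 6 below the control mean. Control replicates 2 and 6, at 6.71 and 6.70, lay among the mimic values. The log2 fold change was -0.11 (95% interval -0.23 to 0.002; limma adjusted p = 0.473). BAG2, an inhibitor of the chaperone-linked ubiquitin ligase CHIP, had 0.05, and BAG3, a heat-inducible gene that routes clients to autophagy together with HSPB8, had 0.06. BAG4 had -0.03 and BAG5 had -0.02.

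Small heat shock proteins, which hold unfolded clients without ATP, had 3 of 8 listed genes measured, with 2 of the 3 higher. Their median was 0.02, with 0 past the threshold or at an unadjusted p under 0.05. That median is the value of HSPB3, and it was -0.035 without mimic replicate 1 and -0.011 without control replicate 5. HSPB8 was 0.07 higher on the log2 scale (limma adjusted p = 0.631), with arrays from 5.06 over 5.22 to 5.29 in controls and from 5.23 over 5.27 to 5.34 after the mimic. All 6 mimic arrays lay above the control mean, inside or just above the control range. HSPB1, the ubiquitous HSP27, had -0.06 with an interval from -0.19 to 0.07, and the muscle gene HSPB3 had 0.02 at a mean of 3.67, below the array median. HSPBAP1, which encodes a protein that binds HSPB1 and is not itself a chaperone, had 0.05.

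Heat-inducible members cut across these families. Of the 16 genes in that list 9 were measured, of which 6 lay higher and 3 lower. Their median log2 fold change was 0.06, the value of HSPA4L, with 0 past the threshold. In the main setting 0 had an unadjusted p under 0.05, but HSPH1 and CHORDC1 did in some alternatives. The median fell to 0.0002 among those in the brightest 25% of rows, which leaves out CHORDC1 and HSPA6. Of the mitochondrial list 2 of 9 were measured, with a median of 0.01, which was -0.018 after quantile normalization and -0.0019 without control replicate 5. Of the endoplasmic reticulum list and of the unfolded protein response list only SDF2L1 was measured, out of 20 and 10 genes.

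**Figure D4:**
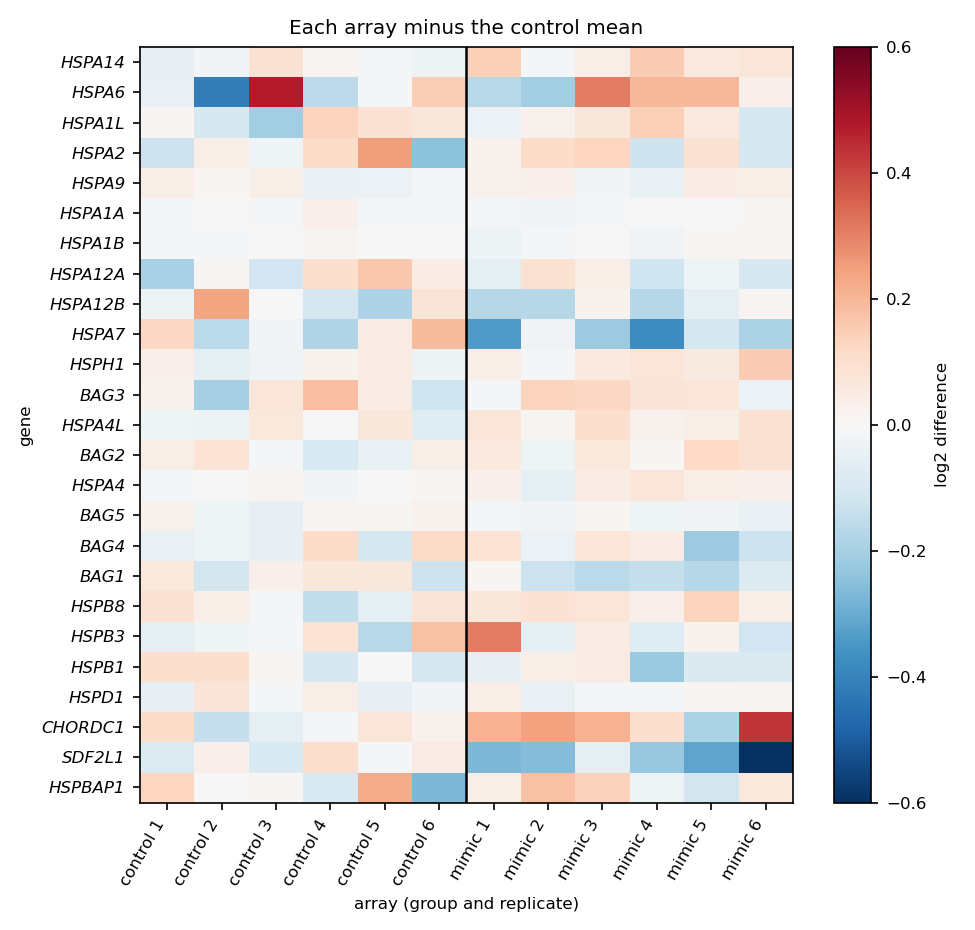
Log2 value of each array minus the control mean of the gene, for the 25 genes (rows, by role) and 12 arrays (columns; a black line parts control from mimic). Blue is lower and red higher. SDF2L1 and HSPA7 are below the control mean in all 6 mimic columns and HSPA4L and HSPB8 above it in all 6, in part faintly. CHORDC1 is among the rows red in 5 of 6, and most other rows mix colours in both groups.

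No array stood apart over the members as a set. The median over the 25 genes of an array's difference from the control mean lay between -0.01 and 0.02 in the controls and between -0.01 and 0.05 in the mimic arrays. The highest was mimic replicate 3, with 18 of 25 genes above the control mean, and the fewest was mimic replicate 2, with 10. The within-group SD had a median of 0.09 over the members and 0.12 over all named genes.

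Covariation between arrays was examined for CHORDC1 with 2 other heat-inducible genes, on deviations from the group means over 12 arrays. With HSPH1 Pearson's r was 0.46 (permutation p = 0.196, adjusted 0.208) and Spearman's rho 0.40 (permutation p = 0.219, adjusted 0.219), and r was 0.31 without the 2 arrays farthest from the median of CHORDC1. With HSPD1 r was -0.33 (permutation p = 0.208, adjusted 0.208) and rho -0.48 (permutation p = 0.114, adjusted 0.219), and r was -0.72 without the 2 farthest arrays. Tests were two-sided with 100000 resamples within groups, adjusted over the 2 relations, and neither passed.

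Other genes of the same pathways did not pass either. In the list of folding and degradation in the endoplasmic reticulum, 20 of 29 genes were measured, 10 higher and 10 lower, with a median log2 fold change of 0.01. In that list 2 of the 20 genes had an unadjusted p under 0.05, both higher, against 10.9% of named genes. ERO1B, an oxidase that recharges disulfide isomerases, had 0.21 (limma adjusted p = 0.336). ERP44, which retains client proteins in the secretory pathway, ran from 9.92 over 9.99 to 10.03 in controls and from 10.05 over 10.07 to 10.14 after the mimic. Its groups did not overlap, as for 1.75% of named genes (log2 fold change 0.10, limma adjusted p = 0.375). SEC61B, a subunit of the translocation channel, had -0.11, with 6 of 6 mimic arrays below the control mean. SDF2, the paralogue of SDF2L1, had 0.04 (limma adjusted p = 0.844), a gene named after its value was seen.

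Sensors and transcription factors of the unfolded protein response had 8 of 13 measured, 4 higher and 4 lower, with a median of 0.004 and 0 at an unadjusted p under 0.05. The stress-induced genes TRIB3 and ATF3 had log2 fold changes of -0.11 and -0.09. DDIT3, which encodes the transcription factor CHOP, had 0.15 at a mean of 3.58, below the array median. HSP90 cochaperones had 9 of 16 measured, 6 higher and 3 lower, a median of 0.02 and 0 at an unadjusted p under 0.05. PPID, a cyclophilin, had 0.09, with 6 of 6 mimic arrays above the control mean, TSC1 had 0.05 and ST13 had 0.06. Prefoldin genes and TCP1 had 7 of 9 measured, 4 higher and 3 lower, with a median of 0.06. In that list PDCL3, a phosducin-like partner of the cytosolic chaperonin, had 0.19 (limma adjusted p = 0.414). It was the only 1 of the 7 at an unadjusted p under 0.05, against 10.9% of named genes. VBP1 had 0.10 and PFDN4 had 0.07. Of the heat shock transcription factors HSF1 had 0.05, HSF4 -0.05 and HSF5 -0.05, with limma adjusted p values of 0.827, 0.902 and 0.897.

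**Figure D5:**
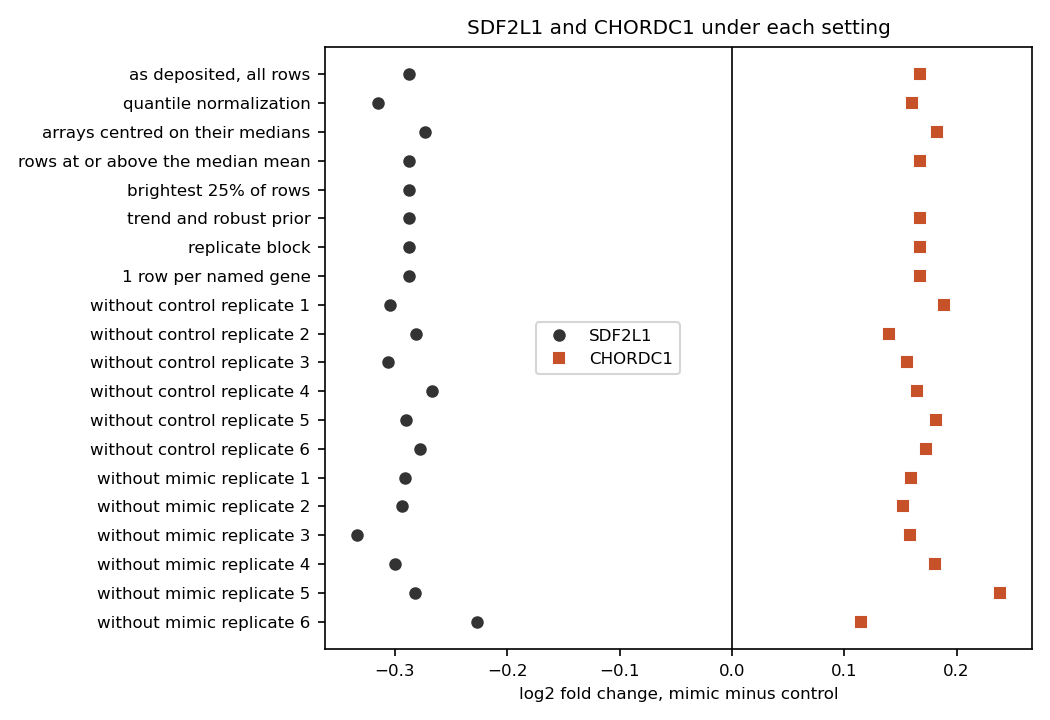
Log2 fold change (mimic minus control) of SDF2L1 and CHORDC1 under each setting of scaling, row filter and array left out. SDF2L1 stays between -0.33 and -0.23 and CHORDC1 between 0.11 and 0.24; CHORDC1 is not in the brightest 25% of rows.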

How the data were processed

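RNA of 12 samples was measured on Affymetrix Human Gene 2.0 ST arrays. The deposited table gives 1 value per transcript cluster (a row) and array, taken here to be log2 values from their range (1.62 to 14.4; array medians 4.44 to 4.51). Per the submitters' processing notes the authors used Affymetrix Expression Console; the version, background correction and normalization were not stated in the labels or the table. The number of arrays limits the precision, and no background level could be set.

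The platform annotation named 16098 of 53617 rows, each matched by identifier to RefSeq (GRCh38.p14), and 37519 are unnamed here. A gene with several rows was represented by its highest-mean row. The groups were compared with limma (version 3.58.1, R 4.3.3; two-sided, moderated by eBayes with neither trend nor block) over all rows, after the procedure was tested on simulated data. Alternatives changed the scaling, row filter, prior, block, row choice, threshold and arrays. The rule for named genes took members with an unadjusted p under 0.05 and a mean at or above the array median, SDF2L1 and CHORDC1, the member with the smallest p of each role and the 3 smallest of each other list; the remaining members are named to account for all 25. Members and lists were chosen with earlier results of these data known.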

Additional observations from a re-analysis of the deposited data

Results flagged for a closer look

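For 40 genes in each treatment group (80 groups of 6 arrays), the outermost array was compared with its nearest neighbour. A wide gap was found in 5, and chance alone gives about 1 in 20. Among the members, HSPA1A was highest in control replicate 4, at 13.65 against 13.61 to 13.62 in the other controls, and HSPA4 was lowest in mimic replicate 2, at 10.88 against 10.96 to 11.01. Among other genes, TSC1 was lowest in control replicate 6 (8.41, others 8.62 to 8.72), PDCL3 in control replicate 5 (7.49, others 7.80 to 7.98) and PFDN4 in mimic replicate 1 (6.57, others 6.68 to 6.74).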

How the results depend on the processing

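Of the 25 members 0 passed in any setting run. Of 470 log2 fold changes of single members under alternatives, 448 kept their direction and 22 turned, in 11 genes. With arrays centred on their medians HSPA1A was 0.010 and HSPA1B 0.0086, after quantile normalization HSPA9 was -0.013 and HSPD1 -0.023, and in its lowest-mean row HSPA1L was -0.042. Leaving out single arrays turned BAG4 (-0.053 to 0.0066), HSPA12A (-0.068 to 0.0038), HSPA1A (-0.0077 to 0.0013), HSPA1L (-0.017 to 0.052), HSPA2 (-0.027 to 0.072), HSPA6 (-0.024 to 0.155), HSPB3 (-0.035 to 0.057), HSPBAP1 (-0.0087 to 0.090) and HSPD1 (-0.0099 to 0.016), and among other genes HSF5 (-0.123 to 0.014) and HSF4 (-0.094 to 0.017). The members' median of 0.02 was 0.0011 after quantile normalization, 0.037 with arrays centred on their medians and -0.0027 to 0.028 without single arrays (lowest without control replicate 6). The median of the HSP70 list turned below 0 after quantile normalization and without control replicate 1, 2, 3 or 6 or mimic replicate 3 or 4, and that of small heat shock proteins ran from -0.035 to 0.057 without single arrays. The count at an unadjusted p under 0.05 was 1 to 3 without single arrays. It was 1 (SDF2L1) without control replicate 1 or mimic replicate 4 and 3 without control replicate 2 or mimic replicate 5. SDF2L1 was counted in every setting, but the others varied. HSPA7 was not counted without control replicate 1 or 6 or mimic replicate 1 or 4, and the row filters left it out. BAG1, lower, entered after quantile normalization, with either row filter and with 1 row per gene. It also entered without control replicate 2 or 6 or mimic replicate 1. HSPH1 entered as higher with the trend and robust prior, and CHORDC1 as higher without mimic replicate 5. In the brightest 25% of rows the median of small heat shock proteins was -0.060 and that of heat-inducible members 0.00019, with fewer genes tested; without single arrays the latter ran from 0.00995 to 0.058. The correlation of CHORDC1 with HSPH1 was 0.26 after quantile normalization; the cause was not tested. Same-numbered arrays of the 2 groups did not deviate together (correlations of -0.11 to 0.08). A shared effect was not tested, and the correlations cannot tell whether same-numbered samples were handled together, which the labels do not state. With a replicate block 0 members passed, 2 had an unadjusted p under 0.05 and the adjusted p of SDF2L1 in limma was 0.423.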
